A study of Mus musculus with 28 samples.

Results

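The kinase probe sets described here are the 77 on the Affymetrix U74Av2 mouse array whose platform annotation gives a single gene symbol starting with Mapk, Map2k, Map3k, Map4k, Camk, Prka, Prkc or Prkg, out of 12422 probe sets that are not controls. They stand for 52 of the 8251 genes that the annotation names singly. The symbols also take in proteins that are not kinases: the JNK scaffolds Mapk8ip1 and Mapk8ip3, the JNK-binding protein Mapkbp1, regulatory subunits of PKA and AMPK, and Prkcsh, a subunit of the endoplasmic reticulum enzyme glucosidase II. The values are signals of whole brain RNA from 28 C57BL/6J mice, 16 of them untreated and 12 taken 1 hour after nicotine, injected intraperitoneally, had caused a seizure.

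The untreated mice were 6 wild-type mice aged 6 to 9 weeks, 5 alpha7 +/T mice aged 6 to 8 weeks and 5 beta4 null mice aged 6 to 9 weeks. The seized mice were 3 wild-type mice of 7 to 8 weeks, 5 alpha7 +/T mice that were all 8 weeks old and 4 beta4 null mice of 7 to 8 weeks. The alpha7 +/T mice carry 1 copy of the L250T allele of the alpha7 nicotinic acetylcholine receptor subunit. Beta4 null mice have no beta4 subunit of the same receptor family. Each genotype was given its own nicotine dose so that the seizures would be of a similar score, so among seized mice genotype and dose cannot be told apart. No mouse that was given nicotine without a seizure was analysed here, so the drug and the seizure cannot be told apart either. Age differed with treatment, most in the alpha7 +/T mice, where 4 of the 5 untreated ones were 6 weeks old. So were 3 of the 6 untreated wild-type mice and 1 of the 5 untreated beta4 null mice. No seized mouse was that young. Mice are numbered within each group in the order of deposition.

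A MAP kinase cascade passes a signal from a Map4k or another activator to a Map3k, from there to a Map2k and then to a MAP kinase such as JNK (Mapk8, Mapk9, Mapk10) or p38 (Mapk12, Mapk14), and scaffold proteins hold the members of a cascade together. CaM kinases are switched on by calcium bound to calmodulin, conventional protein kinase C (PKC) by calcium and diacylglycerol, and protein kinase A (PKA) by cyclic AMP, which releases the catalytic subunits from the regulatory ones. In neurons these enzymes carry calcium and transmitter signals from the membrane to synaptic proteins and to the nucleus, and they are controlled largely by phosphorylation and second messengers, which an RNA measurement does not see.

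Of the 77 probe sets, 56 (72.7%) lay above the median signal of their own array on at least 3 arrays and were tested, against 7350 of 12422 (59.2%) of all probe sets. The 56 stand for 43 genes. All 5 CaM kinase and all 8 PKA and AMPK probe sets passed, as did 13 of 15 for PKC, 14 of 17 for the MAP kinases and their partners, 6 of 10 for Map2k, 7 of 17 for Map3k and 3 of 4 for Map4k. No probe set passed for Map2k6, Map3k2, Map3k6, Map3k8, Map3k11, Map3k12, Mapk13, Prkch or Prkg2. The single probe set for a cyclic GMP kinase, Prkg2 (98368_at), read 1.45 to 10.7 over the 28 arrays, and Map3k12 (160881_at), a neuronal activator of the JNK cascade, read 3.76 to 57.0. Both were under the array median on all 28 arrays. Mapk3, Camk2g, Camkk1, Prkar2b, Prkaa1 and Prkg1 were not analysed here.

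Every array had been scaled to the same trimmed mean of 150, and within groups the rank correlation of arrays was 0.907 to 0.972. The arrays fell into 2 classes by the signal of the 3' against the 5' probe set for the housekeeping gene Gapdh, a control for RNA and label length. That log2 ratio was 1.13 to 2.57 on 19 arrays, here called high-ratio arrays, and -0.48 to 0.096 on 9 low-ratio arrays. The low-ratio arrays were untreated alpha7 +/T mice 3 and 4, seized alpha7 +/T mice 1 to 3 and mice 1 and 2 of both beta4 null groups, while all 9 wild-type arrays were high-ratio. Results are therefore given with and without the class where it moves them. Fos, the immediate early gene used to check the seizure label, rose 3.96-fold averaged over genotypes (log2 1.99 ± 0.22 SE, adjusted p = 5.19e-06, limma with Benjamini-Hochberg adjustment) and was above the mean of its untreated group in 12 of 12 seized mice. Its separate changes were 1.82 (wild-type), 2.48 (alpha7 +/T) and 1.65 (beta4 null), and only the one in alpha7 +/T mice passed the threshold alone (adjusted p = 0.17, 0.00042 and 0.31). Untreated alpha7 +/T mice had less Fos than untreated wild-type mice, by a log2 difference of -1.05 (adjusted p = 0.040). The tissue is whole brain, in which fewer cells of a type and less RNA per cell cannot be told apart, and 6 of 7 neuron markers were above the array median on all 28 arrays.

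The first comparison asks which kinase transcripts differed 1 hour after the seizure. Averaged over the genotypes, none of the 56 probe sets passed the threshold of adjusted p below 0.05 in limma, where 0.408% of all 7350 did. At an unadjusted p below 0.05 only Camk2b was counted, 1.79% of the members against 8.64% of all probe sets. The log2 differences ran from -0.63 for Mapk7 to 0.49 for Camk4, with a median of -0.01 against 0.01 over all probe sets, and 24 of the 56 (42.9%) were above 0 against 53.0% of all. The 95% confidence interval lay within a log2 change of 0.5 either way, a 1.41-fold change, for 36 of the 56 (64.3%; 68.2% of all probe sets), and within a 2-fold change for 46 (82.1%; 93.9%). For the other 10 a change of 2-fold or more was within the interval. Separately, 0 members passed in wild-type mice (0.0544% of all probe sets), 0 in alpha7 +/T mice (2.80%) and 0 in beta4 null mice (0.0136%), with 1, 6 and 0 at an unadjusted p below 0.05, or 1.79%, 10.7% and 0% against 4.24%, 18.4% and 1.74% of all.

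**Figure D1:**
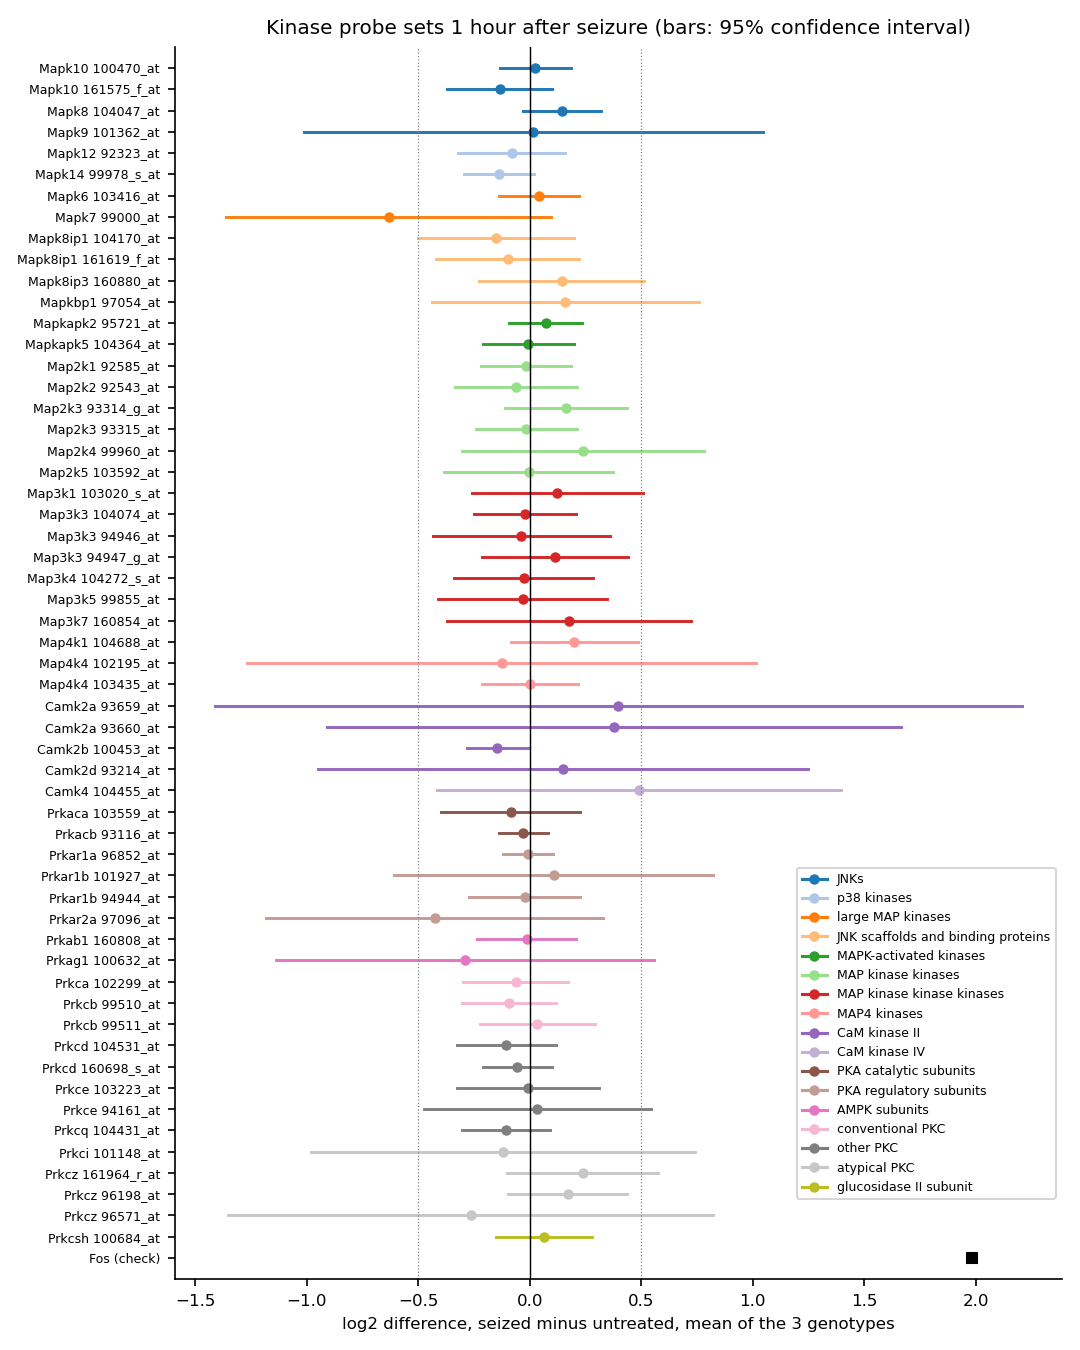
Log2 difference in signal between seized and untreated mice, averaged over the 3 genotypes, for each of the 56 tested kinase probe sets (points, coloured by family) with 95% confidence intervals (bars); dotted lines mark log2 changes of 0.5 in either direction and the black square is Fos. The points lie between -0.63 and 0.49, Fos lies at 1.99, and the widest intervals belong to probe sets such as those of Camk2a and Mapk9.

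Among the MAP kinases, the p38 kinase Mapk14 (99978_s_at) read 329, 440 and 531 (lowest, median and highest) in untreated wild-type mice and 370 to 423 in seized ones. It read 390 to 489 before and 320 to 422 after the seizure in alpha7 +/T mice, and 381 to 466 and 349 to 432 in beta4 null mice. The groups overlapped in every genotype, 2 of 12 seized mice were above the mean of their untreated group, and the averaged difference was -0.14 ± 0.08 (adjusted p = 0.64). Mapk7, also called ERK5, had the most negative averaged difference, -0.63 ± 0.36 (adjusted p = 0.65), with signals from 11.8 to 117 over all groups. The JNK Mapk8 differed by 0.15 ± 0.09, Mapk9 by 0.02 ± 0.50, and Mapk10 by 0.02 ± 0.08 on its brighter probe set (100470_at) and -0.13 ± 0.11 on the other (161575_f_at). None of the JNK, p38 or large MAP kinase probe sets, nor Mapkapk2 and Mapkapk5, kinases that MAP kinases activate (0.07 ± 0.08 and -0.01 ± 0.10), passed the threshold.

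Upstream in the cascades the differences were of similar size. Map2k1, the kinase that activates ERK, had geometric mean signals of 791 in untreated and 853 in seized wild-type mice, 710 and 693 in alpha7 +/T mice, and 757 and 693 in beta4 null mice, an averaged difference of -0.02 ± 0.10. Map2k4, which activates JNK, differed by 0.24 ± 0.26, and Map2k3 (93314_g_at), which activates p38, by 0.16 ± 0.13 (adjusted p = 0.79). The smallest unadjusted p in the other upstream families belonged to Map3k3 (94947_g_at), 0.11 ± 0.16 by log2 difference (adjusted p = 0.91), and Map4k1, 0.20 ± 0.14 (adjusted p = 0.74), and in both the seized and untreated mice overlapped in every genotype. All 16 tested probe sets of Map2k, Map3k and Map4k lay between -0.13 and 0.24.

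Camk2b (100453_at), the beta subunit of CaM kinase II, was the 1 member with an unadjusted p below 0.05 in the averaged comparison. It read 1627, 1749 and 2096 (lowest, median and highest) in untreated wild-type mice and 1454, 1653 and 1418 in the 3 seized ones. In alpha7 +/T mice it read 1711, 1707, 1779, 2015 and 1482 untreated and 1352, 1574, 1659, 1678 and 1356 after the seizure. In beta4 null mice it read 1500, 1453, 1376, 1779 and 1665 against 1445, 1526, 1480 and 1806. Of the seized wild-type and alpha7 +/T mice, 2 in each group were below every untreated mouse of their genotype and the others were within its range, and the beta4 null groups covered nearly the same range. The averaged difference was -0.15 ± 0.07 (adjusted p = 0.55), with a 95% interval of -0.28 to -0.01, and 1 of 12 seized mice was above the mean of its untreated group. By genotype the differences were -0.26 (wild-type), -0.19 (alpha7 +/T) and 0.01 (beta4 null).

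The other CaM kinases were measured much less closely. Camk2a, the alpha subunit that dominates in forebrain excitatory neurons, read under 20 on every high-ratio array on its brighter probe set (93660_at, 3.39 to 18.8), and its averaged difference was 0.38 ± 0.63. Camk2d differed by 0.15 ± 0.54 and the nuclear kinase Camk4 by 0.49 ± 0.44. An interval this wide spans changes of more than 2-fold for each of the 3 genes.

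The next family, PKA, holds some of the most closely measured members. Prkar1a (96852_at), a regulatory subunit, read 2875, 3207 and 3506 (lowest, median and highest) in untreated wild-type mice and 3133, 3250 and 3497 in the seized ones. In alpha7 +/T mice its range was 2927 to 3596 untreated and 2723 to 3112 seized, and in beta4 null mice 2760 to 3595 and 3278 to 3409. The groups overlapped in every genotype and the averaged difference was -0.01 ± 0.05. Prkacb, the catalytic subunit C-beta, likewise differed by -0.03 ± 0.05, with group geometric means between 1503 and 1645. The catalytic subunit Prkaca differed by -0.09 ± 0.15, and Prkar1b, a brain-enriched regulatory subunit, by -0.02 ± 0.12 on its brighter probe set (94944_at) and 0.11 ± 0.35 on 101927_at. Prkar2a, the smallest unadjusted p of the PKA and AMPK family, differed by -0.43 ± 0.37 (adjusted p = 0.81), with single mice between 7.33 and 140. The AMPK subunits differed by -0.01 ± 0.11 for Prkab1 and -0.29 ± 0.41 for Prkag1.

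No PKC isoform passed the threshold either. The conventional isoforms Prkca and Prkcb (99510_at) differed by -0.06 ± 0.12 and -0.09 ± 0.10. Of the isoforms that need no calcium, Prkcd (160698_s_at) differed by -0.06 ± 0.07, Prkce (103223_at) by -0.01 ± 0.15 and Prkcq by -0.11 ± 0.10. The atypical isoform Prkcz had the smallest p of the family on 161964_r_at, 0.24 ± 0.17 (adjusted p = 0.74), where 10 of 12 seized mice were above the mean of their untreated group. Its other probe sets gave 0.17 ± 0.13 (96198_at) and -0.26 ± 0.53 (96571_at).

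The promoters of the members were searched for 5 short motifs, since PKA and CaM kinases activate CREB, which binds the cyclic AMP response element, and JNK activates Jun, a part of AP-1. RefSeq's GRCm38.p6 windows of 250 bases before the start were at hand for 43 of the 52 genes, 68 windows in all, but not for Camk2a, Camk4, Map3k2, Map3k8, Map4k4, Mapk8ip1, Prkce, Prkch and Prkg2. On either strand, TGACGTCA, the full cyclic AMP response element, was in 2 of 68 windows (2.94%) against 1.55% of 32851 windows of all genes, those of Mapk10 and Prkar1a. TGANTCA, the AP-1 site, was in 1 (1.47% against 6.75%; Map2k6), and GCGNGGGCG, the Egr site, in 7 (10.3% against 4.70%; Camk2b, Map3k1, Mapk13, Mapk6, Prkaca and Prkar1b). TATAAA was in 4 (5.88% against 12.4%), and GGGGCGGGG, an Sp1 site, in 7 (10.3% against 10.4%). The median GC content was 62.8% for the members' windows and 52.4% for all. A match describes these letters only and shows neither binding nor use.

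The members with the full response element are printed here, with Fos as the gene that rose. Capitals mark TGACGTCA in Mapk10 and Prkar1a and TATAAA in Fos. The sequences are the strand of the gene, 5′ to 3′, for Mapk10 at chr5:103211335-103211584 (minus strand), Prkar1a at chr11:109650889-109650918 (plus strand, 30 bases around the motif) and Fos at chr12:85473640-85473889 (plus strand), all ahead of the start.
Mapk10: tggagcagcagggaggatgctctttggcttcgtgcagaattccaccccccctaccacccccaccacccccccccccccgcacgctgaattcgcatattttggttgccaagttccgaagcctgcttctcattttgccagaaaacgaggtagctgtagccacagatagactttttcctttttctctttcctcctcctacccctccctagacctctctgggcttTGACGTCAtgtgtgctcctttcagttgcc
Prkar1a: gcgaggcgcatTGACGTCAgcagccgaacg
Fos: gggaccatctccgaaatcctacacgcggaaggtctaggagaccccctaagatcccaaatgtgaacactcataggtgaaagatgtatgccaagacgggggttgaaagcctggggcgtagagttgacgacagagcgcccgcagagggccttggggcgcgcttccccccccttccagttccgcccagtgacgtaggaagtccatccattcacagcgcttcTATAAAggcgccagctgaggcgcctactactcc
The motif begins 29 bases before the start in Mapk10, 49 in Prkar1a and, for TATAAA, 33 in Fos. Other Prkar1a transcripts start inside the Prkar1a window, so only the 30 bases around its motif are printed. Its 49 bases are counted to the start of the transcript that the window belongs to. Of these 3 genes Fos rose after the seizure by 1.99, while Mapk10 (100470_at) and Prkar1a stood at 0.02 and -0.01 in the same averaged comparison. The Fos window holds tgacgt, the first letters of the response element, followed by a where the full motif has C. The search for the full motif does not count it, so Fos is not printed as a gene without the element.

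Alpha7 +/T mice had 6 members with an unadjusted p below 0.05 after the seizure, Map2k3, Map3k1, Mapk8, Mapk8ip1, Prkab1 and Prkcz, and none passed after adjustment. Prkab1 (160808_at), the beta1 subunit of AMPK, the cell's energy sensor, came nearest. Its signal was 151, 144, 151, 103 and 145 in the 5 untreated alpha7 +/T mice and 92.1, 132, 71.0, 71.0 and 98.7 in the 5 seized ones. All seized mice were below the untreated mean, and untreated mouse 4 lay within the seized range. In wild-type mice it read 77.7, 96.7 and 127 (lowest, median and highest) untreated and 122, 114 and 136 seized. In beta4 null mice it read 89.4, 104, 66.2, 102 and 115 untreated and 112, 121, 113 and 98.1 seized. Most seized mice of these genotypes lay in the upper part of, or above, the untreated range. The log2 difference was -0.60 ± 0.18 in alpha7 +/T mice (1.52-fold lower, adjusted p = 0.060), 0.32 ± 0.20 in wild-type mice and 0.24 ± 0.19 in those without beta4. The test that these differ between genotypes, limma's F test, gave an adjusted p of 0.32. No member passed that interaction test after adjustment (0.0272% of all probe sets did), and 2, Mapk8 and Prkab1, had an unadjusted p below 0.05 (3.57% against 7.66%).

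Mapk8 (104047_at), the kinase JNK1, went the other way in the same mice. It read 191, 234, 181, 289 and 261 in untreated and 356, 371, 353, 247 and 256 in seized alpha7 +/T mice. All 5 seized mice were above the untreated mean. The 3 high values belong to the seized mice on low-ratio arrays, and the other 2 lie within the untreated range. In wild-type mice it read 265, 275 and 303 (lowest, median and highest) untreated and 240, 228 and 276 seized, and in beta4 null mice 301, 282, 280, 246 and 262 against 335, 351, 252 and 290. The difference was 0.45 ± 0.14 in alpha7 +/T mice (1.37-fold higher, limma adjusted p = 0.067), -0.17 ± 0.16 in wild-type mice and 0.15 ± 0.15 in those without beta4. The interaction had an adjusted p of 0.52 by limma's F test.

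**Figure D2:**
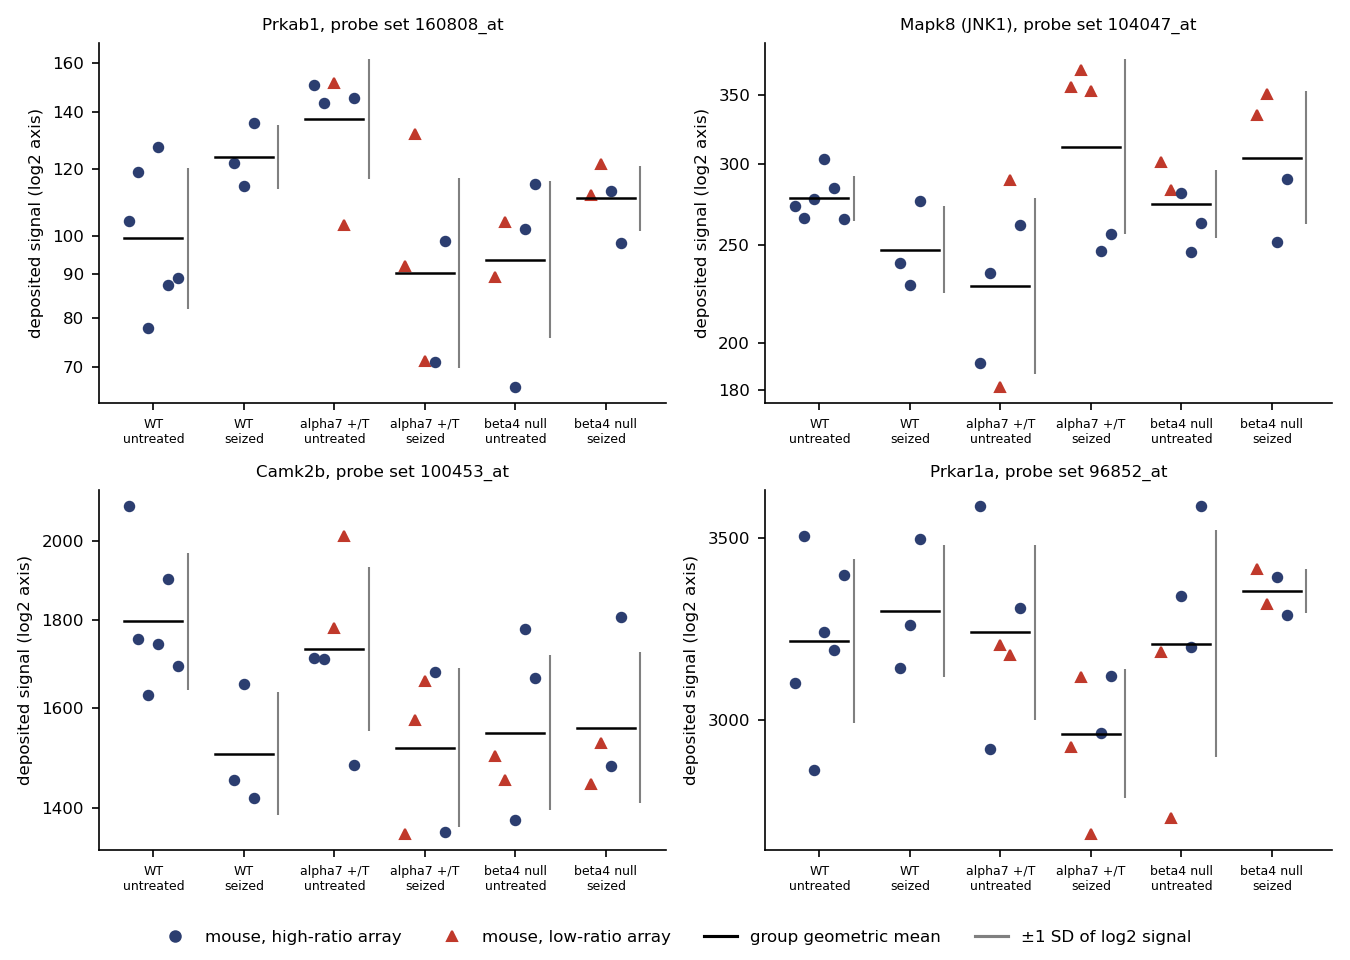
Signal of each mouse on a log2 axis for Prkab1, Mapk8, Camk2b and Prkar1a in the 6 groups; blue circles are mice on high-ratio arrays, red triangles mice on low-ratio arrays, black lines geometric means and grey bars 1 SD of the log2 values in each direction. Prkab1 has geometric means of 137 in untreated and 90.4 in seized alpha7 +/T mice, the 3 highest seized alpha7 +/T values of Mapk8 are red triangles, and Prkar1a stays between 2723 and 3596.

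These counts moved with the array class. With the class as a covariate, 5 members passed in seized against untreated alpha7 +/T mice, 8.93% of the 56 against 13.3% of all probe sets. Prkab1 was then lower by a log2 difference of -0.61 (limma adjusted p = 0.025), Mapk8ip1 by -0.80 (adjusted p = 0.0089) and Prkar1b (101927_at) by -0.65 (adjusted p = 0.023). Mapk8 was higher by 0.40 (limma adjusted p = 0.027) and Map3k1 by 0.81 (adjusted p = 0.038). The brighter Prkar1b probe set, 94944_at, and the other Mapk8ip1 probe set were not among these 5. Among high-ratio arrays alone 0 passed in limma (0.177% of all probe sets), with Prkab1 at -0.81 and Mapk8 at 0.15. Among low-ratio arrays alone, 2 untreated and 3 seized in this genotype, 3 passed (9.28% of all), Map3k1 at 1.72, Mapk8ip1 at -0.997 and Camk2a (93659_at) at 2.72. This Camk2a probe set passed the filter through low-ratio arrays alone, and its signals there ran from 5.79 to 155. Leaving out untreated alpha7 +/T mouse 4 gave 2 calls (3.57%; 1.96% of all probe sets), Mapk8 at 0.54 and Prkab1 at -0.71. Leaving out untreated mouse 5 gave 3 (5.36%; 9.12% of all), Map3k1, Mapk8 and Mapk8ip1. Without seized mouse 2 Prkab1 alone passed (-0.74; 3.10% of all), and without seized mouse 4 Mapk8 alone (0.54; 2.57% of all). With age as a covariate 0 passed (0.163% of all), Prkab1 being at -0.74 (adjusted p = 0.15) and Mapk8 at 0.41 (adjusted p = 0.41).

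The proteins that feed or answer these kinases were read from lists of their genes. Averaged over genotypes, where 0.408% of all probe sets passed, 1 of 5 tested MAP kinase phosphatases rose: Dusp6, which switches off ERK, by 0.63 ± 0.11 (adjusted p = 0.0020), while Dusp1 was at 0.71 ± 0.19 (adjusted p = 0.13). By genotype Dusp6 was at 0.85 ± 0.20 (wild-type), 0.24 ± 0.18 (alpha7 +/T) and 0.81 ± 0.19 (beta4 null), none past the threshold alone. None passed of 16 genes of Ras and Raf signalling or 9 kinases and factors downstream of MAP kinases. None did of 19 genes of calmodulin, calcineurin and calcium handling, or of 10 PKA anchors, inhibitors and cyclic AMP targets. The same held for 11 partners of diacylglycerol and PKC, 3 genes of cyclic GMP synthesis and targets and 8 genes around AMPK. The median differences of the 8 lists lay between -0.03 and 0.12, against 0.01 over all probe sets. In alpha7 +/T mice, where 2.80% of all probe sets passed, 3 genes of all these lists rose: the PKA inhibitor Pkia by 1.10 ± 0.21 (adjusted p = 0.0058), Rasa1, which turns off Ras, by 0.92 ± 0.20 (adjusted p = 0.012) and Ryr2, a calcium release channel, by 0.58 ± 0.16 (adjusted p = 0.042). Pkia was also lower in untreated alpha7 +/T than in untreated wild-type mice, as given below, so its baseline enters this rise. Between seized alpha7 +/T and seized wild-type mice Rasa1 and Ryr2 differed by only -0.02 and 0.03. After the seizure in wild-type mice they were at 0.27 and 0.13. The untreated alpha7 +/T baseline therefore enters the rises of Rasa1 and Ryr2 too.

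The second comparison sets the genotypes against each other without nicotine. Between alpha7 +/T and wild-type mice, both untreated, 5 of the 56 members passed (8.93%), against 16.0% of all probe sets. Mapk8ip1 and Mapkbp1, both of which bind JNK, were higher, 2 members or 3.57% against 7.73% of all, and Mapk10, Map3k1 and Map3k3 were lower, 3 members or 5.36% against 8.29%. At an unadjusted p below 0.05 the shares were 20 of 56 (35.7%) and 35.1%. The median log2 difference of the members was 0.19 against 0.06 over all probe sets, and 37 of 56 (66.1%) were above 0 against 54.6% of all. Of the 56, 6 passed the filter through low-ratio arrays alone, which the wild-type groups lack. A higher value in alpha7 +/T mice was thereby favoured in advance for them. These untreated alpha7 +/T mice are also the baseline of the seizure comparison in that genotype, so a value that is off in them enters both comparisons with opposite sign.

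Mapk10, the JNK isoform expressed mainly in neurons, whose promoter sequence is given above, fell on the probe set 161575_f_at. It read 336, 411 and 496 (lowest, median and highest) in untreated wild-type mice and 258, 189, 188, 176 and 300 in untreated alpha7 +/T mice. The ranges do not overlap. After the seizure wild-type mice read 279, 396 and 339, and alpha7 +/T mice 237, 141, 225, 196 and 302. Beta4 null mice overlapped both genotypes, with 280, 285, 297, 357 and 381 untreated and 263, 274, 257 and 420 seized. The untreated log2 difference was -0.90 ± 0.18 (1.87-fold lower, adjusted p = 0.0075), and the seized one was -0.65 ± 0.22 (adjusted p = 0.40). The call was kept with the array class as a covariate (-0.77, adjusted p = 0.0075) and in each of the 28 fits that left out 1 mouse (adjusted p from 0.00083 to 0.038). On high-ratio arrays alone the difference was -0.73 (adjusted p = 0.077). Among mice of at least 7 weeks, where 1 untreated alpha7 +/T mouse remains, it was -0.33. The brighter Mapk10 probe set, 100470_at, was at 0.23 ± 0.12 (adjusted p = 0.18), so the fall was seen by only 1 of the gene's 2 tested probe sets. The ending _f_at is the array maker's mark for a probe set that may share probes with related sequences.

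Map3k1 (103020_s_at), which acts upstream of JNK and ERK, fell by a log2 difference of -1.09 ± 0.29 (2.13-fold lower, adjusted p = 0.021). Untreated wild-type mice read 66.5, 78.8 and 106 (lowest, median and highest) and untreated alpha7 +/T mice 75.7, 40.7, 25.1, 13.4 and 74.1. Alpha7 +/T mice 1 and 5 were inside the wild-type range, and the 2 lowest values came from the low-ratio arrays of mice 3 and 4. With the array class as a covariate the call was kept (-0.84, adjusted p = 0.041). Without mouse 3 the difference was -0.94 (adjusted p = 0.083) and without mouse 4 it was -0.72 (adjusted p = 0.083). On high-ratio arrays alone it was -0.40 (adjusted p = 0.30). In seized alpha7 +/T mice, at 68.6, 56.6, 57.4, 69.9 and 53.1 against 83.3, 57.0 and 61.8 in seized wild-type mice, it was -0.13.

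Map3k3 (94947_g_at), another activator of MAP kinase cascades, fell by -0.75 ± 0.25 (1.69-fold lower, adjusted p = 0.041). It read 67.6, 76.8 and 92.2 (lowest, median and highest) in untreated wild-type mice and 47.3, 39.3, 54.3, 34.2 and 60.7 in untreated alpha7 +/T mice. The ranges do not overlap, and on high-ratio arrays alone the difference was -0.69 (adjusted p = 0.079). With the array class as a covariate it was -0.50 (adjusted p = 0.10), with age -0.70 (adjusted p = 0.077), and with no filter the adjusted p was 0.061. The other Map3k3 probe sets were at -0.22 (104074_at) and -0.37 (94946_at) and did not pass. The call was lost in 9 of the 28 fits that left out 1 mouse, all of them untreated wild-type mice 2 to 6 or alpha7 +/T mice 1 to 4, with differences from -0.81 to -0.64 and adjusted p from 0.051 to 0.13.

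The JNK scaffold Mapk8ip1 (104170_at) rose by 0.81 ± 0.27 (1.75-fold, adjusted p = 0.040). It read 234, 320 and 435 (lowest, median and highest) in untreated wild-type mice and 620, 487, 633, 1127 and 254 in untreated alpha7 +/T mice. Mice 1 to 4 were above every wild-type mouse and mouse 5 was within their range. The second probe set for the gene, 161619_f_at, was at -0.07. The call on 104170_at was lost in 7 of the 28 fits, those without wild-type mouse 3, 4, 5 or 6 or alpha7 +/T mouse 1, 3 or 4, where the difference was 0.56 to 0.83 with an adjusted p of 0.058 to 0.16. It was also lost with median centring (0.57, adjusted p = 0.085), with no filter (adjusted p = 0.056) and with age (0.73, adjusted p = 0.078) or the array class (0.51, adjusted p = 0.083) as a covariate.

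Mapkbp1 (97054_at) had the same shape, with 18.8, 24.9 and 38.3 (lowest, median and highest) in untreated wild-type mice and 86.5, 80.1, 94.6, 91.2 and 19.3 in untreated alpha7 +/T mice. Mouse 5 again lay among the wild-type mice. The gene rose by 1.33 ± 0.46 (2.51-fold, adjusted p = 0.047), and the call was lost in 17 of the 28 fits that left out 1 mouse, with differences between 1.19 and 1.77 over all of them. Those 17 left out a wild-type untreated mouse (6 fits), alpha7 +/T mouse 1, 2, 3 or 4, or a mouse of another group, and their adjusted p was 0.050 to 0.14. The call was lost too with quantile normalization (1.11, adjusted p = 0.078), median centring (1.09, adjusted p = 0.064), no filter (adjusted p = 0.065), and sex (adjusted p = 0.050), age (1.22, adjusted p = 0.086) or the array class (0.88, adjusted p = 0.12) as a covariate. On high-ratio arrays alone Mapk8ip1 was at 0.41 and Mapkbp1 at 0.99 (adjusted p = 0.30 and 0.22). Alpha7 +/T mouse 5 was the only untreated one of its genotype aged 8 weeks, the others being 6 weeks old, and among mice of at least 7 weeks both signs turned, to -0.18 and -0.46. Age and this mouse cannot be told apart. In seized mice Mapk8ip1 was at 0.08 and Mapkbp1 at 0.01 between the same genotypes, and in untreated beta4 null against wild-type mice they were at 0.21 and 0.54.

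**Figure D3:**
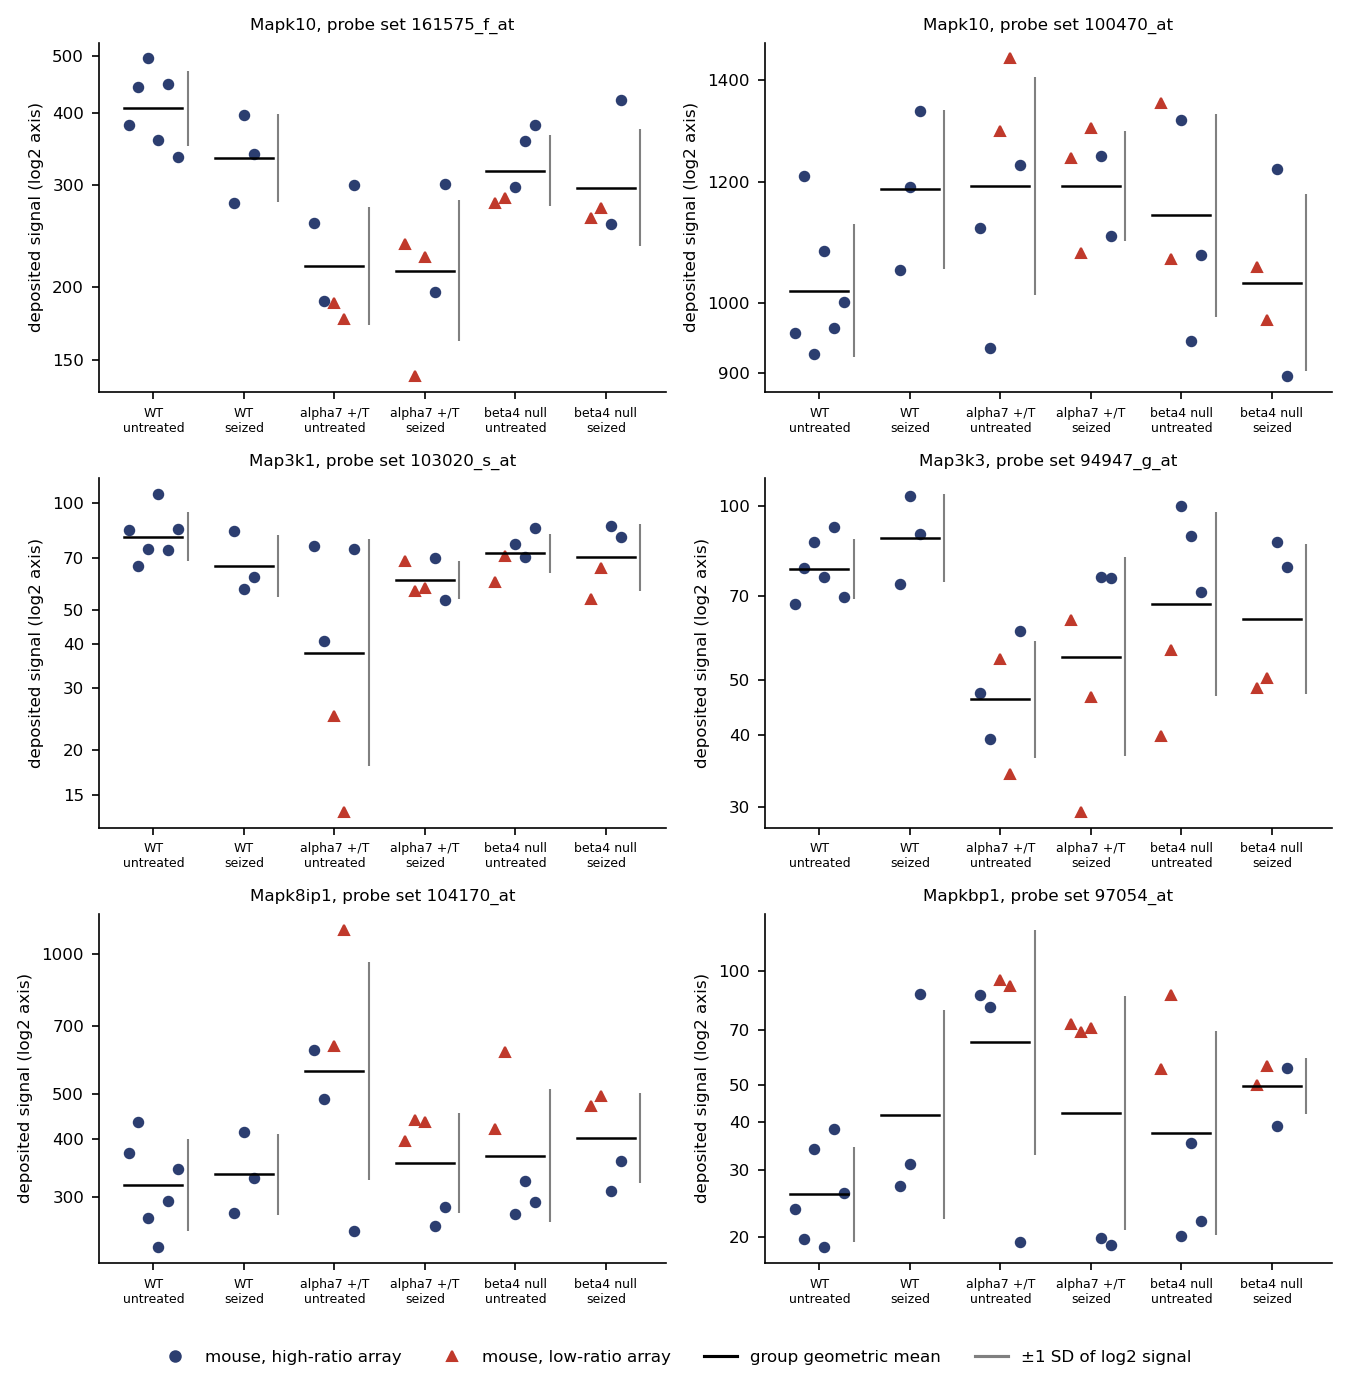
Signal of each mouse on a log2 axis in the 6 groups for the 5 probe sets that differed between untreated alpha7 +/T and wild-type mice and for the second Mapk10 probe set, 100470_at; blue circles are mice on high-ratio arrays, red triangles mice on low-ratio arrays, black lines geometric means and grey bars 1 SD of the log2 values in each direction. Geometric means of 161575_f_at are 407 in untreated wild-type and 217 in untreated alpha7 +/T mice, and untreated alpha7 +/T mouse 5 lies with the wild-type mice for Mapk8ip1 and Mapkbp1.

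How many members passed between untreated alpha7 +/T and wild-type mice depended on single mice. Without alpha7 +/T mouse 5 the count was 14, or 25% of the members against 27.8% of all probe sets. It was 3 without mouse 2 (14% of all), 1 without mouse 3 (0.816%) and 1 without mouse 4 (1.96%). Without wild-type mouse 3 it was 2 (6.97% of all), and without wild-type mouse 5 or 6 it was 3 (8.49% and 8.98%). The mouse titles begin with LT or B4, letters that the labels do not explain. All alpha7 +/T mice and 3 of the 6 untreated wild-type mice are LT. With this prefix as a covariate 1 member passed (1.39% of all probe sets), Mapk10 at -0.91 (adjusted p = 0.036), while Map3k1 was at -1.09, Map3k3 at -0.68, Mapk8ip1 at 0.77 and Mapkbp1 at 1.5 (adjusted p = 0.073, 0.15, 0.13 and 0.097). With the array class as a covariate 3 passed (9.10% of all probe sets), Map3k1, Mapk8 and Mapk10, on high-ratio arrays alone 0 (0.0408%), with age as a covariate 2 (7.63%) and among mice of at least 7 weeks 0 (0.0544%).

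Some marker genes passed in this comparison too, where 16.0% of all probe sets did. Cerebellum markers were lower for 3 of 6 genes (Gabra6, Car8 and Zic1), as were 1 of 5 forebrain markers (Tbr1) and 1 of 6 astrocyte markers (Gja1), and 1 of 4 oligodendrocyte markers (Mag) was higher. None of 7 neuron, 5 microglia, 5 endothelium, 4 thalamus, 3 choroid plexus, 3 pituitary, 2 striatum or 2 blood markers passed. The forebrain list holds Camk2a and the thalamus list Prkcd, which are members. Cerebellum markers summed to 4142 to 5072 in untreated wild-type and 2464 to 4295 in untreated alpha7 +/T mice, and all 6 were above the array median on every array. Oligodendrocyte markers summed to 5073 to 7753 and 5923 to 9376 in the same groups. Neuron markers summed to 9145 to 11605 in untreated wild-type and 8472 to 11152 in untreated alpha7 +/T mice. The part of these markers in the kinase values was not tested. After the seizure in alpha7 +/T mice, where 2.80% of all probe sets passed, 2 of 5 endothelium markers, Cldn5 and Eng, were lower. Averaged over genotypes, where 0.408% of all passed, 1 was, Eng, with no other marker list called in the averaged comparison. Endothelium markers summed to 901 to 1596 in untreated and 568 to 815 in seized alpha7 +/T mice, and their part in the kinase values was not tested either.

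The lists of genes around the kinases also held calls between untreated alpha7 +/T and wild-type mice, where 16.0% of all probe sets passed. Of 16 Ras and Raf genes 3 were higher and 4 lower, among them the adaptor Grb2 at 0.65 (adjusted p = 0.017), the Rap activator Rasgrp2 at 1.19 (adjusted p = 0.021) and the inhibitor Spred2 at -0.63 (adjusted p = 0.025). Of 10 PKA anchors and inhibitors, the inhibitor Pkig was higher at 0.79 (adjusted p = 0.0075) and Pkia lower at -0.74 (adjusted p = 0.023). Of 11 partners of PKC 2 were higher, Plcb1 at 0.53 and Pard6a at 0.72, and the PKC substrate Marcks was lower at -0.68 (adjusted p = 0.017, 0.037 and 0.021). Of 19 calcium genes Itpkb was higher at 0.52 and Itpr2 lower at -0.79, and of 9 downstream factors Atf2 and Max were lower at -0.63 and -0.62. None of 5 phosphatases, 3 cyclic GMP genes or 8 AMPK genes passed.

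In the other genotype comparisons no member passed in limma. The counts at an unadjusted p below 0.05 were 6 of 56 (10.7%, 12.9% of all) for untreated beta4 null mice, 11 (19.6%, 12.0%) for seized alpha7 +/T mice and 2 (3.57%, 4.42%) for seized beta4 null mice, each against wild-type mice of the same treatment. After adjustment 0.0136%, 0% and 0.0136% of all probe sets passed. All wild-type arrays were high-ratio, so genotype and array class are linked in each of these comparisons. Of the tested probe sets, 6 members and 141 of all 7350 passed the filter through low-ratio arrays alone. A higher value than in wild-type mice was thereby favoured in advance for them. They were not left out of these counts, and the shares are not read as a result about the members.

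Many members, like many of all probe sets, differed between the array classes. Within groups, 35 of the 56 members (62.5%) differed between low-ratio and high-ratio arrays at an adjusted p below 0.05, against 52.1% of all probe sets. Of the 56, 6 were above the array median only on low-ratio arrays and had to come out higher there (both Camk2a probe sets, Camk2d, Camk4, Map4k4 102195_at and Prkcz 96571_at), so directions are counted over the 45 members that passed the filter within both classes. Of these 26 (57.8%) differed, near the 53.6% of 6326 probe sets, so differing by class is not read as a trait of the members. Of the 45, 19 were higher on low-ratio arrays (42.2% against 26.7%) and 7 lower (15.6% against 26.9%). For 9 of the 45 (20.0%) the 2 classes had no overlap in signal, against 8.38% of those 6326.

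Mapk9, the kinase JNK2, read 291 to 586 on low-ratio arrays against 32.1 to 252 on high-ratio arrays (6.71-fold, adjusted p = 1.04e-08). Prkar1b on 101927_at read 1144 to 2058 against 236 to 642 (4.16-fold, adjusted p = 2.03e-12). In both, every low-ratio mouse was above every high-ratio mouse. Map2k4 read 221 to 453 against 83.0 to 164 (2.82-fold, adjusted p = 4.21e-10), again with no overlap. Prkcb on 99510_at went the other way, with 1934 to 2381 on low-ratio and 2776 to 3380 on high-ratio arrays (log2 -0.56 ± 0.06, adjusted p = 3.57e-09). Camk2b, Mapk14, Mapkapk2, Prkcq and Prkab1 had class differences between -0.04 and 0.04 and did not pass. Camk2a on 93660_at read 52.8 to 212 on low-ratio and 3.39 to 18.8 on high-ratio arrays, values given without a test since it was above the array median on 7 low-ratio and 0 high-ratio arrays.

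**Figure D4:**
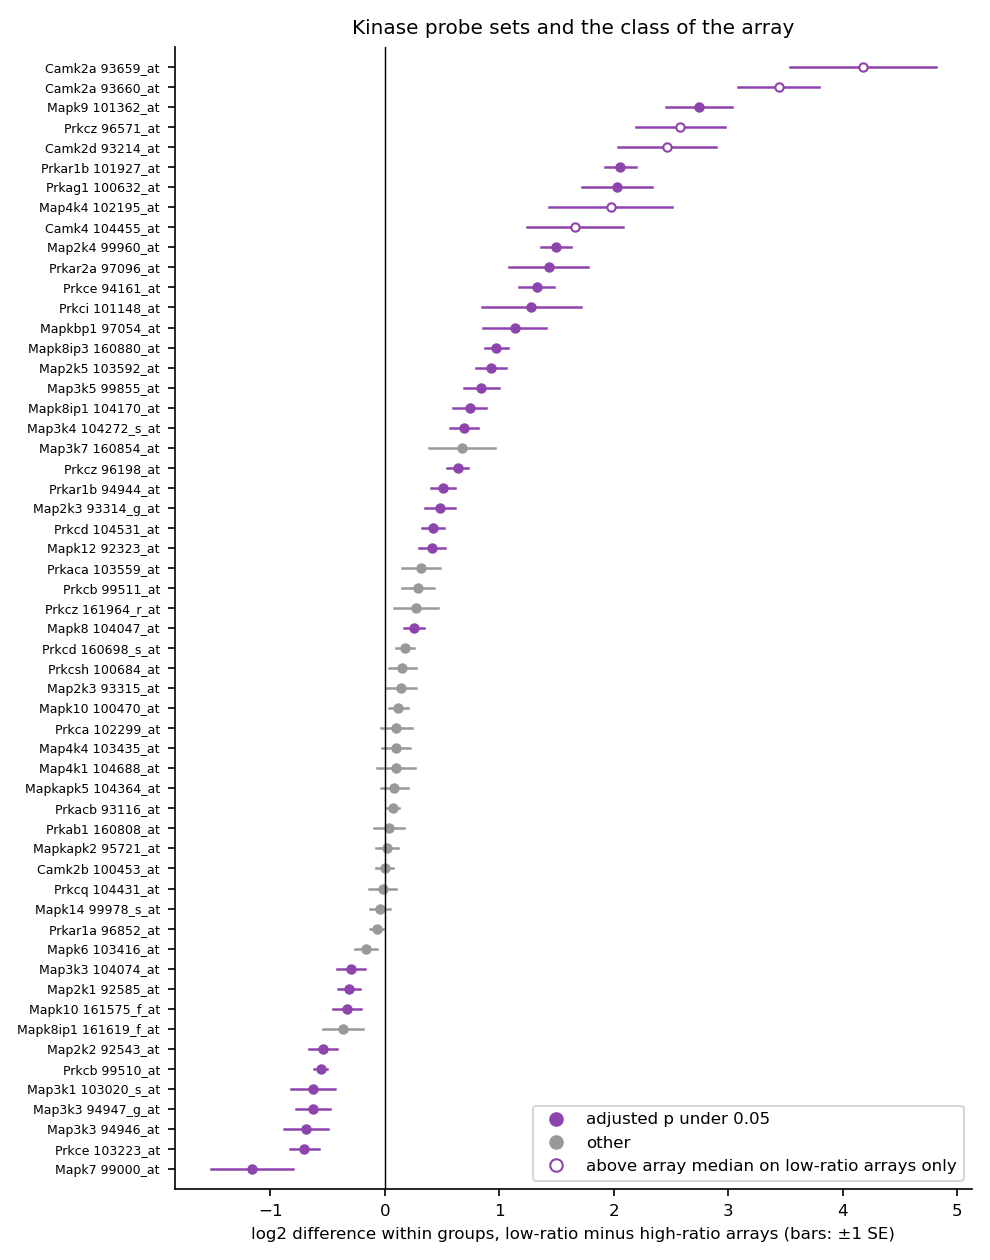
Log2 difference between low-ratio and high-ratio arrays within groups, with 1 SE in each direction, for the 56 tested kinase probe sets; purple points have an adjusted p below 0.05, and open points mark the 6 probe sets above the array median only on low-ratio arrays. The filled points run from -1.16 for Mapk7, which was above the array median on 11 high-ratio and 0 low-ratio arrays, to 2.75 for Mapk9, and Camk2b lies at 0.

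Probe sets of a single gene often went apart with the class. Prkar1b was 2.06 higher on low-ratio arrays by 101927_at and 0.51 by 94944_at. Prkce was 1.33 higher by 94161_at but -0.70 by 103223_at, both past the threshold (adjusted p = 5.76e-08 and 3.11e-05). Mapk8ip1 was at 0.74 by 104170_at and -0.37 by 161619_f_at, and Prkcb -0.56 by 99510_at and 0.29 by 99511_at. Of the 11 genes with more than 1 tested probe set, 8 had probe sets of both signs in the averaged seizure comparison and 4 between untreated alpha7 +/T and wild-type mice (Map4k4, Mapk10, Mapk8ip1 and Prkce). Levels on different probe sets are not comparable, and which transcript ends each probe set reads was not analysed here.

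**Figure D5:**
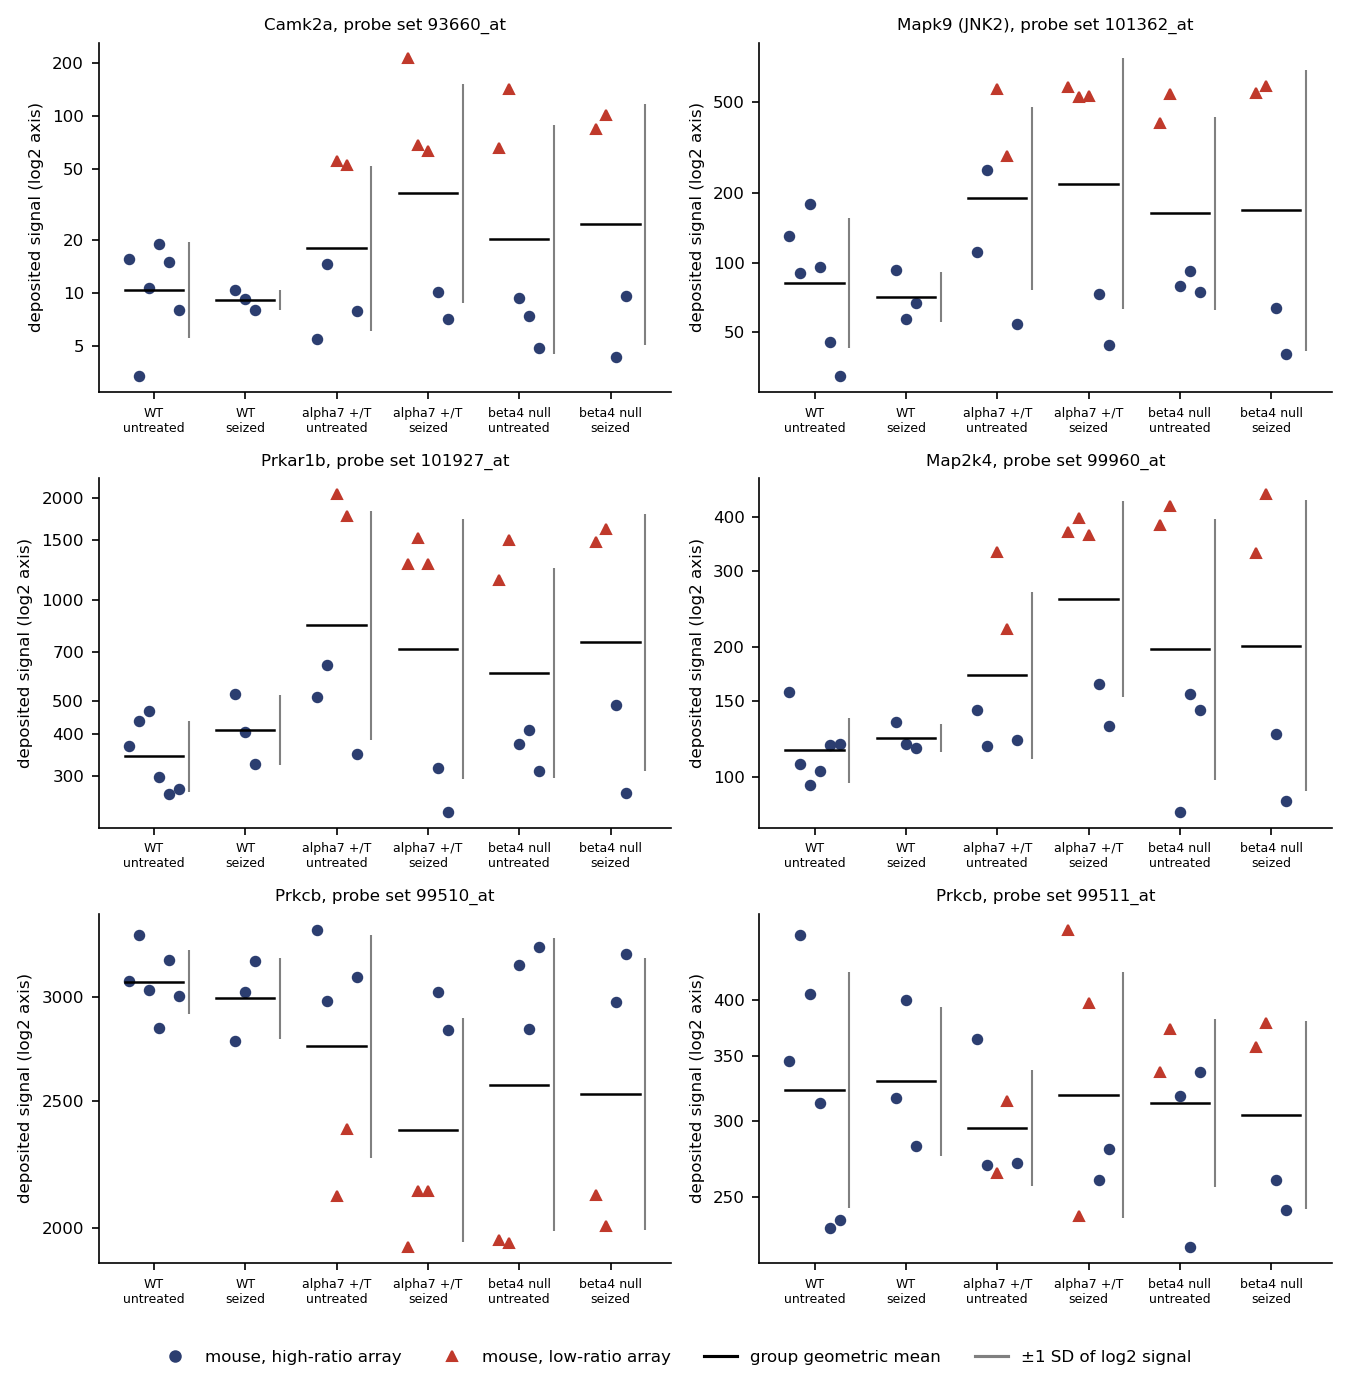
Signal of each mouse on a log2 axis in the 6 groups for Camk2a (93660_at), Mapk9, Prkar1b (101927_at), Map2k4 and both Prkcb probe sets; blue circles are mice on high-ratio arrays, red triangles mice on low-ratio arrays, black lines geometric means and grey bars 1 SD of the log2 values in each direction. The red triangles stand apart from the blue circles in each mutant group for Camk2a, Mapk9, Prkar1b, Map2k4 and Prkcb 99510_at, while for Prkcb 99511_at the classes overlap in the alpha7 +/T groups.

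The rest of the levels by group add to this picture. Geometric mean signals of Prkag1, the gamma1 subunit of AMPK, were 36.1 and 27.7 in untreated and seized wild-type mice, 98.9 and 65.3 in alpha7 +/T mice and 58.9 and 63.3 in beta4 null mice. Camk4 was at 7.97 and 17.7, 29.7 and 37.0, and 21.6 and 21.6 in the same order, and Camk2d at 15.9 and 7.87, 17.3 and 34.0, and 21.5 and 30.1. Prkag1 was higher on low-ratio arrays by a log2 difference of 2.03, while Camk4 and Camk2d were above the array median on low-ratio arrays only. None of the 3 differed between groups past the threshold. By contrast Prkcd on 160698_s_at stayed between 378 and 448 over the 6 groups, Prkcq between 64.9 and 88.7 and Prkca between 74.4 and 106. The median within-group SD of the log2 signal was 0.38 for the members and 0.35 for all tested probe sets.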

How the data were processed

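The authors' deposited values are MAS5 signals, per the submitters' processing notes (version and settings not given in the sources used here), of 28 U74Av2 arrays, a linear intensity for each probe set with every array's trimmed mean at 150. The array gives 12488 probe sets, of which 66 controls were left out. The platform annotation names 1 gene for 10833 of the rest, several for 396 (none of these was named) and does not list 1193. Signals were taken to log2 without further scaling. Probe sets above the median of their own array on at least 3 arrays were fitted together with limma 3.58.1 in R 4.3.3, with 1 mean for each of the 6 groups, a variance trend and two-sided moderated tests. Benjamini-Hochberg adjustment ran over all 7350 probe sets, with a threshold of 0.05. Precision is limited by the number of arrays. A printed error is the SE of a log2 difference unless named otherwise. The labels do not say more about replicates than that each array is 1 mouse.

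The members and lists were chosen with earlier results of these data known. Values of single mice or groups are given for members called in any comparison, for the smallest unadjusted p of each family in the averaged seizure comparison, and for a fixed list of signalling genes. Up to 3 genes with the smallest p are named from each pathway list. The array classes were cut at a Gapdh log2 ratio of 0.5. Alternatives were other scalings, filters, covariates and subsets of arrays, and each array left out in turn. The scripts were checked on simulated data.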

Additional observations from a re-analysis of the deposited data

Results flagged for a closer look

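Single mice stood apart in 3 of the 65 tests of a group of 4 to 6 mice (4.62%) over 13 probe sets by Dixon's test, a share close to the 1 in 20 that chance gives. Seized beta4 null mouse 4 read 420 for Mapk10 (161575_f_at), and the nearest other mouse read 274. Untreated alpha7 +/T mouse 5 read 19.3 for Mapkbp1, where the nearest other mouse read 80.1, and without that mouse 14 kinase probe sets (25%) and 27.8% of all probe sets passed between untreated alpha7 +/T and wild-type mice. Untreated alpha7 +/T mouse 4 read 103 for Prkab1, the nearest other at 144, and without it the seizure difference in that genotype was -0.71.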

How the results depend on the processing

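In the averaged seizure comparison the count of members called stayed at 0 under all alternatives but array weights, which gave 2 (Mapk7 and Mapk8; 8.78% of all probe sets), and in wild-type and beta4 null mice and for the interaction it was 0 under every alternative run. After the seizure in alpha7 +/T mice it was 1 with quantile normalization, array weights or sex as a covariate (4.07%, 2.11% and 3.46% of all), 5 with the array class as a covariate and 3 on low-ratio arrays, and 0 to 3 with 1 mouse left out. The untreated alpha7 +/T and wild-type mice gave 3 with no filter (7.25% of all), 2 with age, 1 with the LT or B4 title prefix and 3 with the array class as a covariate, 0 on high-ratio arrays, 0 among mice of at least 7 weeks, 2 when only the groups compared were fitted (7.32% of all), and 1 to 14 with 1 mouse left out. Array weights gave 13 calls (23.2% of members, 13.7% of all) in seized alpha7 +/T and 21 (37.5%, 27.2%) in seized beta4 null against wild-type mice. Members that passed the filter through low-ratio arrays alone were not left out of these counts. Signs turned for Mapk8ip1 (104170_at, -0.18) and Mapkbp1 (-0.46) between untreated alpha7 +/T and wild-type mice of at least 7 weeks, and in the averaged seizure comparison for Prkar2a (0.039) and Map3k3 (94947_g_at, -0.055) with array weights and for Map3k3 (-0.086) at that age. The cause was not tested. No paired analysis was possible because the titles number single mice and the groups compared share fewer than 2 numbers.

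Whole brain RNA, 3 to 6 mice in a group, low-ratio arrays absent from the wild-type groups and ages that differ with treatment limit all of these values. Low signals, such as those of Camk2a on high-ratio arrays, lie below the array median and have little order among themselves.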
